A study of Mus musculus with 18 samples.

Results

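Checkpoint receptors of the CD28 family, with the nectin-binding receptors, Lag3 and Havcr2, were followed as transcripts across 6 sorted T-cell populations. The 10 genes (Cd28, Ctla4, Icos, Pdcd1, Btla, Tigit, Cd226, Cd96, Lag3 and Havcr2) were taken from the table by their symbols. All 10 are rows of the table of 15402 genes, and all 10 are among the 13190 genes that passed the filter on low values and were tested. CD4+ T cells came from female C57/BL6 Foxp3Timer Foxp3-IRES-GFP mice, in which a Timer protein that matures from blue to red reports Foxp3 transcription and GFP marks Foxp3-expressing cells. Both reporters were present in the animals of every group. Mice sensitised in this way were 5 to 10 weeks old per the study's methods, which give no separate age for the animals of the RNA-seq. All animals had 3% oxazolone, a contact sensitiser, applied to the abdominal skin, and the draining lymph nodes were taken 5 days later, so no group came from untreated animals. Each of the 3 replicates was a pool of 3 mice, so the libraries describe this 1 reporter strain and time point.

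GFP- Timer- cells were sorted as CD44lo naive cells (Tnaive) and CD44hi activated effector cells (Teff). GFP+ cells were sorted on the Timer into 4 gates. Pers1 cells had intermediate Blue and low Red fluorescence, Pers2 cells were high for both, PAt cells were high for Red with little Blue, and Arrested cells had intermediate Red and no Blue. Pers1 and Pers2 together are called persistent expressors here. The sample labels describe the same 4 GFP+ populations, in this order, as de novo, maturing, mature and decaying Foxp3 expressers. Values are log2 of normalised counts as the authors deposited them, so a difference of 1 is a 2-fold change on that scale. Differences of weakly expressed genes may be drawn towards 0 on it, as described with the processing. A gene was called higher or lower when its Benjamini-Hochberg adjusted p from limma was under 0.05 and its absolute log2 fold change was over 1. The sources do not say whether the 3 pools were handled on separate days, and the p-values measure the spread between these pools, part of which may be technical.

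CD28 on T cells binds CD80 and CD86 and gives the costimulatory signal that accompanies T-cell receptor stimulation, while CTLA-4 binds the same ligands with higher affinity and restrains it. Regulatory T cells (Treg) carry CTLA-4 as one of their means of suppression, partly by removing CD80 and CD86 from antigen-presenting cells. TIGIT, CD96 and CD226 form a similar set around the nectin-like ligand CD155, and PD-1, BTLA, LAG-3 and TIM-3 are further inhibitory receptors that are raised on activated or chronically stimulated T cells.

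Several of the members lie close together in the mouse genome, with coordinates from GENCODE vM21 on GRCm38 (mm10). Cd28 (chromosome 1, 60716800 to 60773359), Ctla4 (60887000 to 60915832) and Icos (60977927 to 61000320) follow each other on the plus strand, with gaps of 114 kb and 62.1 kb between them. Pdcd1 lies on the minus strand of the same chromosome, from 94038305 to 94052553. On chromosome 16 are Tigit (43648867 to 43664146, minus strand), Btla (45224315 to 45257670, plus strand) and Cd96 (46035657 to 46120251, minus strand). Lag3 is on chromosome 6 (124904361 to 124911705) and Havcr2 on chromosome 11 (46454935 to 46481255). The gene spans of Ctla4 and Icos each overlap 1 other annotated gene, Rpl18-ps1 and Gm37039, with 0 of their exon bases in the overlap, and neither of those genes is in the table.

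RefSeq promoters (GRCm38.p6) were matched for 6 of the 10 members, Ctla4, Pdcd1, Btla, Tigit, Cd96 and Havcr2. The 250 bases before the start are shown for 3 members that were higher in persistent expressors and for Cd96, which was lower, so that the windows can be read beside the values that follow. Capitals mark matches to the core of the NFAT motif, GGAAA, on either strand, or to TGANTCA, the motif of AP-1. The forkhead motif, TGTTTAC, was searched on both strands too, and no motif overlaps another here. The Ctla4 window is chr1:60908775-60909024 on the plus strand, and it lies within the longer GENCODE span of the gene. The Tigit window is chr16:43664185-43664434 on the minus strand, the Havcr2 window chr11:46454681-46454930 on the plus strand and the Cd96 window chr16:46120249-46120498 on the minus strand.
Ctla4: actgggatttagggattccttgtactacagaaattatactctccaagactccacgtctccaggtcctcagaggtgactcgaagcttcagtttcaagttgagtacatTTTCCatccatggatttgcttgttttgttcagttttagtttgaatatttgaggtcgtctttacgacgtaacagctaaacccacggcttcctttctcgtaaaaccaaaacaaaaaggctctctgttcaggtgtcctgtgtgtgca
Tigit: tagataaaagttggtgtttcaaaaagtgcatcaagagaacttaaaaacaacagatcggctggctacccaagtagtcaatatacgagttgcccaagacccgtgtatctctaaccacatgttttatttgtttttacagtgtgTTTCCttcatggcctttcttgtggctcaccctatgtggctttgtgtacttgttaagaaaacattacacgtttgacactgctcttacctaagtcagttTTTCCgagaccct
Havcr2: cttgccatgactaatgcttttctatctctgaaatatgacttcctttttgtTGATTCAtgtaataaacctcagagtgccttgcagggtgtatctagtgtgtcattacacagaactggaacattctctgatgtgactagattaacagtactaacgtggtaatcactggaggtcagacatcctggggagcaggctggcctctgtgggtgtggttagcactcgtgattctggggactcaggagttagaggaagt
Cd96: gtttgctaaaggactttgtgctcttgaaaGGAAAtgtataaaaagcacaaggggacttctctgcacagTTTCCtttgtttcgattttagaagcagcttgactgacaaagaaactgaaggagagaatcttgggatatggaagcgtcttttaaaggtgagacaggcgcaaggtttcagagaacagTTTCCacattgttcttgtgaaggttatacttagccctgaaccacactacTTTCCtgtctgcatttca

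The Ctla4 window holds 1 NFAT core, 144 bases before the start, and the Tigit window holds 2, at 110 and 13 bases. The Cd96 window holds 4 NFAT cores, at 221, 182, 67 and 18 bases, and the Pdcd1 window, which is not shown, holds 2, at 28 and 23 bases. The single AP-1 match among the 6 members stands in the Havcr2 window, 200 bases before the start. The Btla window has no match to any of the 3 motifs, and no member window has a match to the forkhead motif. Over all 32851 RefSeq promoters of the same length, 55.6% hold an NFAT core, 6.75% an AP-1 match and 3.17% a forkhead match. These are matches of letters in a short window and no binding was measured.

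Receptor transcripts differed in how far they moved across the 6 populations. The range between the highest and the lowest population mean was 7.19 on the log2 scale for Tigit, and 5 of the 13190 tested genes had a larger one. It was 6.13 for Ctla4 (24 genes larger), 5.30 for Havcr2 (54), 4.81 for Lag3 (104), 4.63 for Icos (126) and 4.19 for Pdcd1 (189). At the other end were Btla with 1.46, Cd96 with 1.26, Cd28 with 1.23 and Cd226 with 0.79, against a median of 0.576 over all tested genes. The 6 members with the wide ranges all had their lowest mean in Tnaive cells, and the other 4 did not have it there, as the plot of all values shows.

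**Figure D1:**
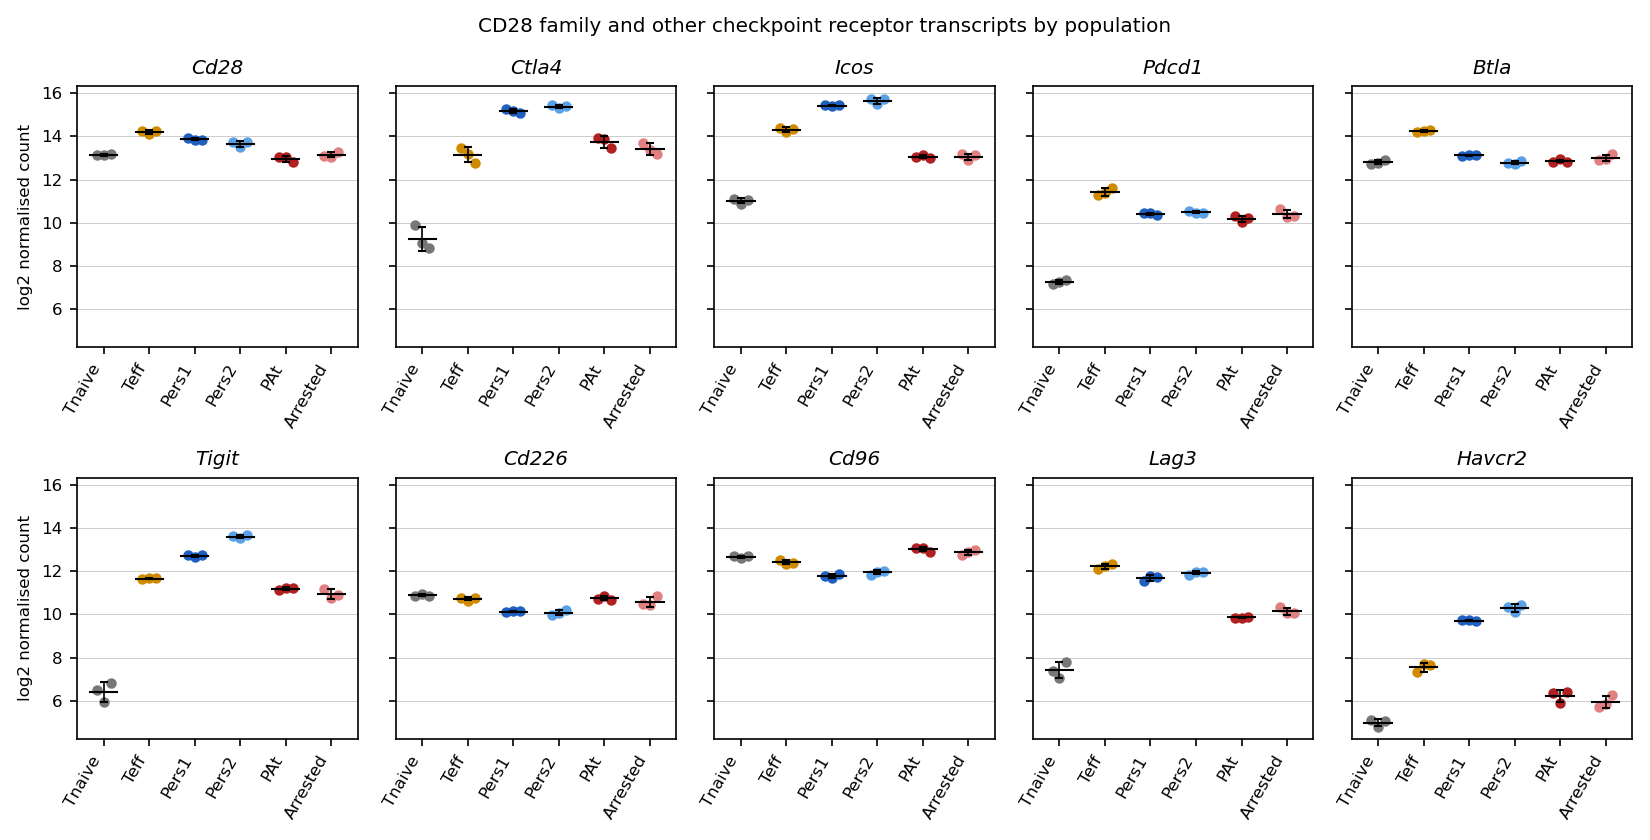
Log2 normalised count of each of the 10 receptors (vertical axis) in the 6 populations (horizontal axis), with a point for each of the 3 libraries, the mean as a line and the SD as a bar. Tigit, Ctla4, Havcr2, Lag3, Icos and Pdcd1 were lowest in Tnaive cells, while Cd28, Btla, Cd226 and Cd96 stayed within 1.46 between population means.

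The costimulators Cd28 and Icos were both high in Teff cells, and both were higher in persistent than in PAt and Arrested libraries. Persistent libraries lay below Teff for Cd28 but above Teff for Icos. Cd28 had values of 13.13, 13.12 and 13.20 in Tnaive cells and of 14.25, 14.09 and 14.26 in Teff cells. In persistent expressors it was at 13.93, 13.85 and 13.83 (Pers1) and 13.75, 13.51 and 13.72 (Pers2). In PAt cells it was at 13.04, 13.06 and 12.82 and in Arrested cells at 13.12, 13.07 and 13.28. Teff libraries were thus above all others for Cd28, persistent libraries came next, the Arrested libraries overlapped with Tnaive, and all PAt libraries lay below the Tnaive libraries.

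Icos, the inducible costimulator of the family, gave 11.12, 10.89 and 11.07 in Tnaive libraries and 14.39, 14.21 and 14.36 in Teff libraries. The Pers1 values were 15.46, 15.39 and 15.45 and the Pers2 values 15.72, 15.50 and 15.75. The PAt values were 13.03, 13.16 and 13.01 and the Arrested values 13.17, 12.91 and 13.12. No persistent library of Icos overlapped with any other population, and Teff libraries stood between them and the PAt and Arrested libraries.

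Among the inhibitory members of the family, Ctla4 differed between the GFP+ populations, in which Pdcd1 and Btla lay within narrow ranges. Ctla4 was at 9.88, 9.05 and 8.83 in Tnaive and at 13.48, 13.19 and 12.79 in Teff libraries. Pers1 libraries reached 15.25, 15.18 and 15.09 and Pers2 libraries 15.44, 15.31 and 15.39, while PAt libraries had 13.94, 13.87 and 13.45 and Arrested libraries 13.69, 13.39 and 13.18. Every persistent library was above all 12 others, and the Teff, PAt and Arrested libraries overlapped.

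Pdcd1, which encodes PD-1, was at 7.15, 7.24 and 7.34 in Tnaive and at 11.30, 11.36 and 11.63 in Teff libraries. In the 12 GFP+ libraries it kept between 10.04 and 10.65, where Pers1 libraries gave 10.45, 10.47 and 10.38, Pers2 libraries 10.54, 10.46 and 10.47, PAt libraries 10.31, 10.04 and 10.21 and Arrested libraries 10.65, 10.29 and 10.30. Pdcd1 thus had 3 levels that did not overlap, with Tnaive lowest, all GFP+ libraries between and Teff highest.

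Btla, the receptor for the TNF receptor family member HVEM, was at 14.20, 14.24 and 14.30 in Teff libraries. The 15 libraries of the other populations ran from 12.72 to 13.17, with means of 12.80 ± 0.09 (SD, n = 3) for Tnaive, 13.13 ± 0.03 for Pers1, 12.79 ± 0.08 for Pers2, 12.87 ± 0.06 for PAt and 13.00 ± 0.15 for Arrested cells. Teff libraries stood apart from all others for Btla, and the Pers1 libraries lay above those of Tnaive, Pers2 and PAt.

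The receptors of the CD155 set went in opposite directions in the GFP+ cells. Tigit, the inhibitory one, was at 6.49, 5.93 and 6.83 in Tnaive and at 11.63, 11.67 and 11.67 in Teff libraries. It reached 12.74, 12.65 and 12.73 in Pers1 and 13.63, 13.53 and 13.65 in Pers2, against 11.12, 11.24 and 11.23 in PAt and 11.18, 10.74 and 10.87 in Arrested libraries. Pers2 libraries were above Pers1 libraries, and both were above every other library.

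Cd226, the activating receptor (chromosome 18, 89176967 to 89272229, plus strand), ran from 9.96 to 10.22 over the 6 persistent libraries (median 10.11), and from 10.42 to 10.93 over the other 12. Its persistent libraries were below all others, the Teff, PAt and Arrested libraries overlapped, and the Tnaive libraries overlapped with those of PAt alone. Cd96 was at 11.79, 11.66 and 11.85 in Pers1 and 11.84, 11.98 and 12.004 in Pers2, against 13.09, 13.09 and 12.90 in PAt and 12.75, 12.90 and 12.98 in Arrested. Its Tnaive values were 12.70, 12.62 and 12.69 and its Teff values 12.51, 12.35 and 12.37. For Cd96 the PAt and Arrested libraries were thus the highest of all and the persistent libraries the lowest.

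Lag3, a receptor for MHC class II, was at 7.39, 7.06 and 7.79 in Tnaive and at 12.09, 12.24 and 12.35 in Teff libraries. The Pers1 values were 11.53, 11.78 and 11.71, the Pers2 values 11.84, 11.96 and 11.95, the PAt values 9.83, 9.85 and 9.88 and the Arrested values 10.33, 10.06 and 10.05. Teff libraries were the highest for Lag3, with the persistent libraries just below them. Havcr2, which encodes TIM-3, was at 5.11, 4.80 and 5.07 in Tnaive and 7.31, 7.69 and 7.66 in Teff libraries. Pers1 libraries gave 9.72, 9.73 and 9.68, Pers2 libraries 10.34, 10.11 and 10.44, PAt libraries 6.36, 5.92 and 6.39 and Arrested libraries 5.72, 5.87 and 6.26. Its persistent libraries were far above the Teff libraries, which in turn were above those of PAt and Arrested.

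Ordered by mean, 25 of the 50 neighbouring pairs of populations (5 for each member) differed at an adjusted p under 0.05, against 20.1% over all tested genes. Tigit and Havcr2 separated 4 of their 5 neighbouring pairs, the exception in both being PAt and Arrested. For Tigit the order was Pers2, Pers1, Teff, PAt, Arrested and Tnaive, and for Havcr2 it was the same. Icos had the order Pers2, Pers1, Teff, Arrested, PAt and Tnaive, in which Arrested and PAt were not separated (adjusted p = 0.996). Pers2 and Pers1 were not separated for Icos either (0.0687), although all Pers2 libraries lay above all Pers1 libraries, and that p fell under 0.05 with the replicate block (0.0169), under quantile normalisation (0.0246), with only the 2 populations in the fit (0.0352) and without Pers2 replicate 2 (0.0267) or Arrested replicate 2 (0.0464). Ctla4 had the order Pers2, Pers1, PAt, Arrested, Teff and Tnaive. Its Pers2 libraries also lay above all Pers1 libraries, and the adjusted p was 0.594, or 0.0312 with only these 2 populations in the fit. The steps from PAt to Arrested (0.412) and from Arrested to Teff (0.285) were not separated, while PAt and Teff, which are not neighbours, differed by 0.60 (Teff less PAt -0.60, adjusted p = 0.0168).

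Lag3 had the order Teff, Pers2, Pers1, Arrested, PAt and Tnaive, with Teff just separated from Pers2 (log2 difference 0.31, adjusted p = 0.0420). In Pdcd1, Pers2, Pers1, Arrested and PAt were neighbours that were not separated (adjusted p = 0.774, 0.887 and 0.217). PAt did differ from Pers2 (Pers2 less PAt 0.30, adjusted p = 0.0110) and from Pers1 (Pers1 less PAt 0.24, 0.0362), which are not its neighbours. Btla had Teff at the top and 4 neighbouring pairs below it with adjusted p from 0.0983 to 0.899. Among pairs further apart, Pers1 differed from PAt (adjusted p = 0.00152), Tnaive (0.000120) and Pers2 (0.00159). Arrested differed from Tnaive (0.0139) and Pers2 (0.00705), while PAt and Pers2 were not separated (0.296). Cd28 ran from Teff over Pers1, Pers2, Arrested and Tnaive to PAt, and the steps from Pers1 to Pers2 (adjusted p = 0.0702), from Arrested to Tnaive (0.962) and from Tnaive to PAt (0.0546) were not separated. For Cd96 the order was PAt, Arrested, Tnaive, Teff, Pers2 and Pers1, with PAt and Arrested (0.251) and Pers2 and Pers1 (0.121) not separated. For Cd226 the single step that separated neighbours was the one from Arrested down to Pers1 (0.44, adjusted p = 0.000241).

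Levels of different receptors can be set side by side only per length, for which the log2 value was reduced by the log2 of the exon length in kb (exons of each gene merged, GENCODE vM21). On that scale Ctla4 ranked first of the 10 members in all 4 GFP+ populations, with Pers1 at 13.96 ± 0.08, Pers2 at 14.16 ± 0.07, PAt at 12.53 ± 0.26 and Arrested cells at 12.20 ± 0.26 (SD, n = 3). The gene ranked second was Icos in persistent expressors (13.65 in Pers1 and 13.88 in Pers2) but Cd96 in PAt (11.90) and Arrested cells (11.75). In Teff cells Icos (12.54) and Btla (12.48) led, and in Tnaive cells Cd96 (11.54), Btla (11.03) and Cd28 (10.54) led. Havcr2 ranked last in Tnaive, Teff, PAt and Arrested cells, from 3.55 to 6.11 per kb on the log2 scale, and Cd226 ranked last in both persistent populations.

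The first comparison asked which receptors differed between persistent expressors and the PAt and Arrested cells, which had little or no Blue fluorescence. The Foxp3 transcript itself was 0.24 higher in persistent expressors on the log2 scale (adjusted p = 0.000139) and was not called. In persistent expressors Havcr2, Icos, Tigit, Lag3 and Ctla4 were higher and Cd96 was lower than in PAt and Arrested cells, and Cd28, Cd226, Pdcd1 and Btla were not called. The 5 of 10 members called higher stand against 4.74% of all tested genes, and the 1 called lower against 2.77%. Lag3 had a mean of 11.80 in persistent expressors and was 3.47-fold lower in PAt and Arrested cells, a difference of 1.79 on the log2 scale (standard error 0.09, adjusted p = 1.5e-13). Havcr2 was 15.1-fold higher than its mean of 6.09 in PAt and Arrested cells (standard error 0.11 on the log2 scale, adjusted p = 2.4e-17). For Cd96 the means were 11.85 and 12.95, a level 2.13-fold higher in PAt and Arrested cells (log2 fold change -1.09, standard error 0.05, adjusted p = 3.6e-14).

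Cd28 and Cd226 passed the adjusted p but not the fold in that comparison. Cd28 differed by 0.70 (95% interval 0.59 to 0.81, adjusted p = 1.1e-10), that is 1.63-fold, and Cd226 by -0.55 (-0.68 to -0.42, adjusted p = 1.1e-07). For Pdcd1 the difference was 0.16 (0.02 to 0.31, adjusted p = 0.0439), and that p rose above 0.05, to as much as 0.125, without any 1 of Pers1 replicates 1 and 2, Pers2 replicates 1 to 3, PAt replicates 2 and 3 and Arrested replicates 2 and 3. The Pdcd1 difference was 0.093 (0.243) under quantile normalisation and 0.096 (0.217) with each library centred on its median, and without the trend the p was 0.0550. For Btla it was 0.02 (-0.07 to 0.12, adjusted p = 0.670). In 6 members (Cd28, Ctla4, Icos, Tigit, Lag3 and Havcr2) all 6 persistent libraries were above all 6 PAt and Arrested libraries, which 24.0% of tested genes showed, and in Cd226 and Cd96 all were below, which 21.8% showed.

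Other cells in the sort were checked with marker lists, since these are bulk libraries in which fewer cells of a type and less RNA per cell cannot be told apart. T-cell markers (5 genes) summed to between 16.38 and 16.86 in all 18 libraries on the log2 scale. None of the 4 Treg markers, Foxp3, Il2ra, Ikzf2 and Tnfrsf18, was called between persistent expressors and PAt and Arrested cells. Their log2 fold changes ran from -0.12 (Il2ra) to 0.42 (Ikzf2). Between persistent expressors and PAt and Arrested cells, 3 of 5 B-cell markers were lower in persistent expressors, with summed levels of 10.50 to 10.79 against 11.26 to 11.87, and Cr2, the lowest of them, had means from 6.46 to 7.58. Of 5 macrophage or monocyte markers, Itgam was higher in persistent expressors (log2 fold change 2.05) and the other 4 were not called, with sums of 9.17 to 9.98 against 9.03 to 9.62. None of the 6 dendritic-cell markers or the 4 NK-cell markers was called, with sums up to 7.34 and 7.69 in the GFP+ libraries. Of the 2 CD8 T-cell markers, 1 was lower, with sums of 9.65 to 10.18 against 10.41 to 10.70. Of the 4 naive T-cell markers 2 were lower, Ccr7 (log2 fold change -1.37) and Tcf7 (-1.48), with sums of 15.25 to 15.70 against 16.09 to 16.39. The part of these cells in the receptor differences was not tested.

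**Figure D2:**
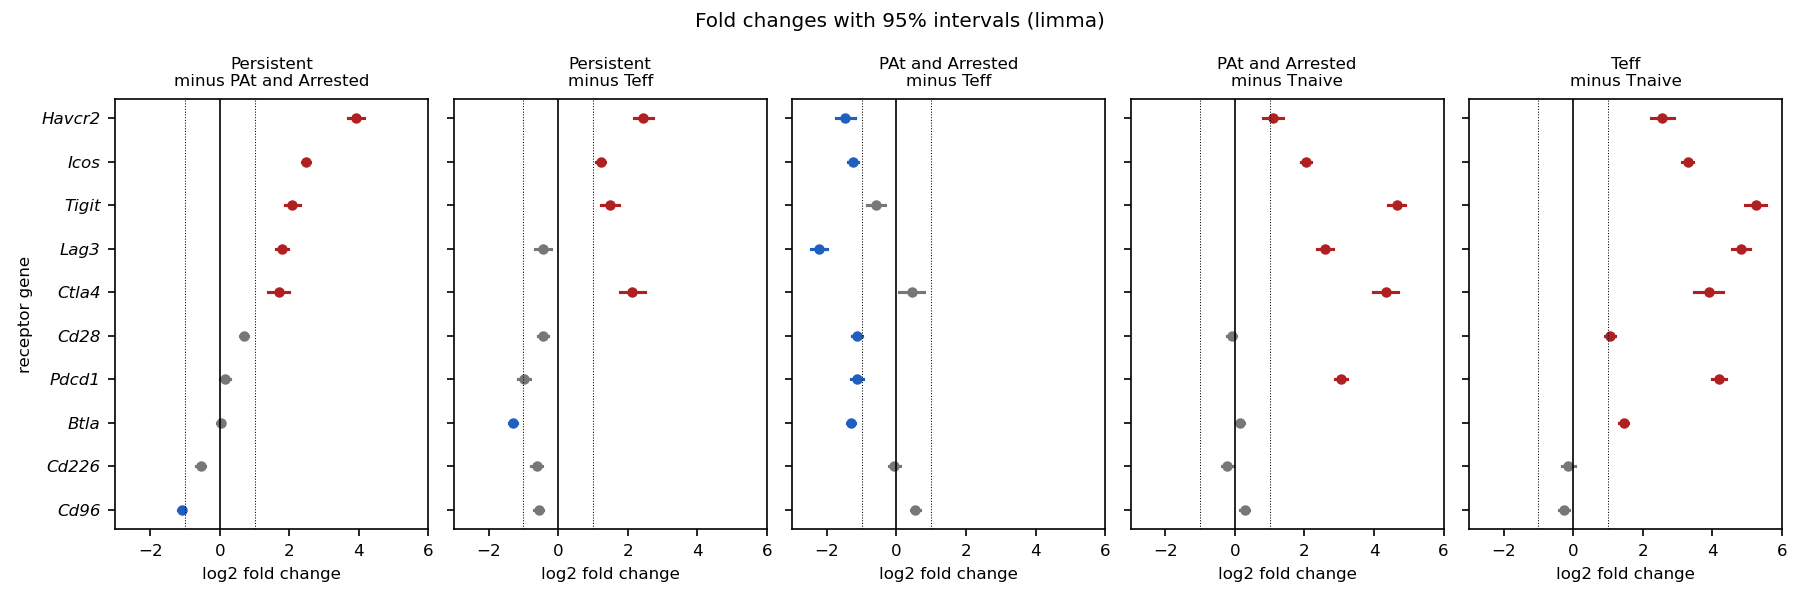
Log2 fold change (horizontal axis) of each receptor (vertical axis) in 5 comparisons, with 95% intervals from limma as bars, red where called higher, blue where called lower and grey where not called, and dotted lines at the fold threshold of 1. Havcr2 has the largest difference between persistent expressors and PAt and Arrested cells (3.92), Tigit the largest between Teff and Tnaive cells (5.24), and Cd226 is grey in all 5 panels.

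Within the persistent expressors, Pers2 and Pers1 differed at smaller sizes. No member passed both thresholds, in a comparison where 0.144% of tested genes were higher and 0.0455% lower. Those shares include the fold threshold, so they are no comparison for p alone. Tigit, Havcr2 and Btla had an adjusted p under 0.05 at sizes under the fold threshold. Tigit was higher in Pers2 by 0.90 (standard error 0.14, adjusted p = 0.000283), 1.86-fold, and Havcr2 by 0.59 (standard error 0.15, adjusted p = 0.0174), while Btla was lower by 0.34 (log2 fold change -0.34, adjusted p = 0.00159). The adjusted p of Havcr2 lost its place under 0.05 without Pers1 replicate 1 or 3 or Pers2 replicate 1 or 3, reaching 0.0762. Ctla4 differed by 0.21 with a 95% interval from -0.21 to 0.62, Lag3 by 0.24 (-0.01 to 0.50) and Pdcd1 by 0.06 (-0.14 to 0.27).

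No member separated Arrested from PAt cells in the model of all libraries. In this comparison 0.0455% of tested genes were higher and 0.0758% lower in Arrested cells, and 0 members had an adjusted p under 0.05. Cd28, Pdcd1, Cd96 and Lag3 had an unadjusted p under 0.05. The shares given include the fold threshold and are no comparison for an unadjusted p. The differences ran from -0.33 for Ctla4 (95% interval -0.74 to 0.08) to 0.29 for Lag3 (0.03 to 0.55). For Icos the difference was 0.00 (-0.16 to 0.16), and for Havcr2 it was -0.27 (-0.59 to 0.05). Single libraries moved these values. Cd226, at -0.18, was at -0.31 (adjusted p = 0.0186) without Arrested replicate 3 and at -0.099 without Arrested replicate 2. Ctla4 was at -0.21 without Arrested replicate 3. Havcr2 was at -0.43 without that library, at -0.42 without PAt replicate 2 and at -0.16 without Arrested replicate 1.

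The next comparisons set each GFP+ group beside Teff cells, and they share the 3 Teff libraries. Against Teff, persistent expressors had higher Havcr2, Ctla4, Tigit and Icos and lower Btla, that is 4 of 10 members higher (4.28% of tested genes) and 1 lower (4.03%). PAt and Arrested cells had 0 members called higher (2.84%) and 6 called lower (4.04%), which were Lag3, Havcr2, Btla, Icos, Cd28 and Pdcd1. Havcr2 and Icos were thus called on opposite sides of Teff. Havcr2 was 2.45 higher in persistent expressors (standard error 0.13, adjusted p = 1.4e-12), and in PAt and Arrested cells its log2 fold change was -1.47 (adjusted p = 6.3e-09).

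For Icos these values were 1.22 (adjusted p = 1.3e-12) and -1.25 (9.8e-13), and for Btla they were -1.29 (3.8e-14) and -1.31 (3.4e-14). Lag3 was 0.43 lower than Teff in persistent expressors (log2 fold change -0.43, adjusted p = 0.00174) and 4.67-fold lower in PAt and Arrested cells (log2 fold change -2.22, adjusted p = 2.3e-13). Ctla4 had log2 fold changes of 2.13 (8.8e-10) in persistent expressors and 0.43 (95% interval 0.07 to 0.79, adjusted p = 0.0399) in PAt and Arrested cells. The latter p rose to 0.284 without Teff replicate 3 and was also above 0.05 without Teff replicate 2, PAt replicate 1 or 2 or Arrested replicate 1 or 2.

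Pdcd1 had log2 fold changes against Teff of -0.97 (adjusted p = 3.0e-09) in persistent expressors and -1.14 (3.1e-10) in PAt and Arrested cells. The first of these lay just short of the fold threshold and was called without Teff replicate 1 (-1.04) or Teff replicate 2 (-1.01). Tigit had 1.50 in persistent expressors and -0.59 in PAt and Arrested cells. For Cd28 these were -0.43 and -1.14, for Cd226 -0.62 and -0.07, and for Cd96 -0.56 and 0.54.

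Teff libraries also held more dendritic-cell, macrophage or monocyte and CD8 T-cell transcripts than the rest. Dendritic-cell markers (6 genes) summed to between 11.21 and 11.75 in Teff and to at most 7.34 in the 15 other libraries, with Siglech, a marker of plasmacytoid dendritic cells, at 10.62 in Teff. Against Teff, 4 of the 6 were lower in persistent expressors and 4 in PAt and Arrested cells, and Clec9a, at 4.24, was the lowest of them in Teff. Macrophage or monocyte markers summed to between 10.89 and 11.19 in Teff and to between 9.03 and 9.98 elsewhere, and 4 and 5 of 5 were lower. B-cell markers summed to between 11.53 and 12.21 in Teff, and the PAt (11.65 to 11.87) and Arrested sums (11.26 to 11.56) overlapped with that range. Of these markers 4 of 5 were lower in persistent expressors and 0 of 5 in PAt and Arrested cells.

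CD8 T-cell markers summed to between 11.51 and 11.997 in Teff and to at most 10.70 elsewhere, with 2 and 1 of 2 lower. NK-cell markers summed to between 8.97 and 9.05 in Teff against 7.20 to 7.69 in the GFP+ libraries, with 3 and 2 of 4 lower. The NK-cell sums of Tnaive libraries lay above those of Teff, at 9.13 to 9.42. Of the 5 T-cell markers 0 were called against Teff in persistent expressors and 1, Cd4, was lower in PAt and Arrested cells. The log2 fold changes of Cd4 were -0.94 and -1.08. All 4 Treg markers were higher than in Teff in persistent expressors, and all 4 in PAt and Arrested cells. Of the 4 naive T-cell markers 2 were lower than in Teff in persistent expressors and 1 in PAt and Arrested cells, with sums of 16.66 to 16.70 in Teff. Their part in the receptor differences that involve Teff was not tested.

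Compared with Tnaive cells, both Teff and the PAt and Arrested cells had higher Tigit, Ctla4, Pdcd1, Lag3, Icos and Havcr2, while Btla and Cd28 were called higher in Teff cells, and were lower in PAt and Arrested cells than in Teff as given above. These comparisons share the 3 Tnaive libraries. In Teff cells 8 of 10 members were higher (8.88% of tested genes) and 0 were lower (2.28%). The log2 fold changes were 5.24 for Tigit, 4.81 for Lag3, 4.19 for Pdcd1, 3.90 for Ctla4, 3.29 for Icos, 2.56 for Havcr2, 1.45 for Btla and 1.05 for Cd28, with adjusted p of 6.3e-11 or less. Cd96 differed by -0.26 (adjusted p = 0.00288) and Cd226 by -0.15 (adjusted p = 0.157). Tigit transcripts were 37.8-fold and Lag3 transcripts 28.1-fold higher in Teff cells.

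Under quantile normalisation the median of all tested genes between Teff and Tnaive cells moved to -0.10, and the split of called genes went from 1171 higher and 301 lower to 942 higher and 550 lower. Relative to that median, the 8 members lay between 1.19 (Cd28) and 5.01 (Tigit). Cd28 was at 0.97 and no longer called when each library was centred on its own median. Of the marker lists, 5 of 6 dendritic-cell, 5 of 5 B-cell, 3 of 5 macrophage or monocyte, 1 of 2 CD8 T-cell and 2 of 4 NK-cell markers were also higher in Teff than in Tnaive cells. Of the NK-cell markers 1 was lower. In Tnaive libraries these lists summed to 6.89 to 6.99, 9.48 to 9.96, 9.62 to 9.82, 10.31 to 10.61 and 9.13 to 9.42. Of the 4 Treg markers 2 were higher in Teff than in Tnaive cells and 0 were lower. Their part in these differences was not tested.

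In PAt and Arrested cells 6 of 10 members were higher than in Tnaive cells (6.63% of tested genes) and 0 were lower (1.27%). These were Tigit (log2 fold change 4.65), Ctla4 (4.33), Pdcd1 (3.06), Lag3 (2.59), Icos (2.04) and Havcr2 (1.09). Havcr2 missed the fold threshold without Tnaive replicate 2 (0.998) and under quantile normalisation (0.82). Cd96 differed by 0.28 (adjusted p = 0.000579), Btla by 0.14 (0.0465), Cd28 by -0.08 (0.277) and Cd226 by -0.22 (0.0246). The dendritic-cell markers, at most 7.34 in sum in either group, were called in 0 of 6 cases, while 5 of 5 B-cell markers were higher in PAt and Arrested cells. Of the macrophage or monocyte markers 1 was higher and 1 lower, of the CD8 T-cell markers none was called, and of the NK-cell markers 1 was lower. All 4 Treg markers were higher in PAt and Arrested than in Tnaive cells. Of the 4 naive T-cell markers 3 were lower, with sums of 17.04 to 17.07 in Tnaive libraries, and 2 of the 4 were lower in Teff than in Tnaive cells. The part of these cells was not tested.

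Whether a receptor moved by the same amount from PAt and Arrested to persistent cells as from Tnaive to Teff cells was tested directly, as the difference of the 2 shifts in the same model. These shifts share no libraries. The difference was called in 6 members, 1 with a larger shift among GFP+ cells (1.52% of tested genes) and 5 with a smaller one (6.90%). Havcr2 was the member with the larger shift among GFP+ cells, 3.92 against 2.56, a difference of 1.35 (standard error 0.19, adjusted p = 4.3e-06). Pdcd1 moved by 0.16 among GFP+ cells and by 4.19 among Timer- cells, a difference of -4.03 (standard error 0.12, adjusted p = 2.1e-16). Tigit (2.09 against 5.24), Lag3 (1.79 against 4.81), Ctla4 (1.69 against 3.90) and Btla (0.02 against 1.45) had smaller shifts too.

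Icos, Cd28, Cd96 and Cd226 had differences of -0.81, -0.35, -0.83 and -0.40, all with an adjusted p of 0.00459 or less and under the fold threshold. Over all tested genes the difference was higher in 200 and lower in 910, and under quantile normalisation in 411 and 749. All 5 B-cell, 5 of 6 dendritic-cell, 4 of 5 macrophage or monocyte, both CD8 T-cell, 2 of 4 NK-cell and 1 of 4 naive T-cell markers were lower in the difference of shifts, and the fifth macrophage or monocyte marker was higher. Of the 4 Treg markers 1 was higher and 2 were lower in it. Their part was not tested.

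**Figure D3:**
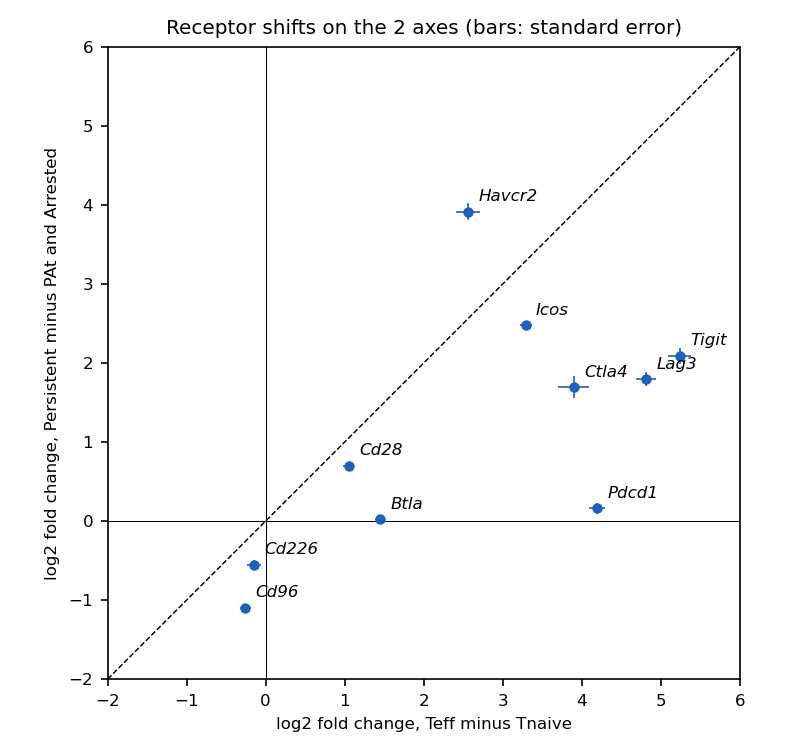
Log2 fold change from PAt and Arrested to persistent cells (vertical axis) against that from Tnaive to Teff cells (horizontal axis) for each of the 10 receptors, with standard errors as bars and a dashed line where the shifts are equal. Havcr2 lies above the line (3.92 against 2.56), Pdcd1 lies near 0 on the vertical axis (0.16 against 4.19), and Cd226 and Cd96 are negative on both axes.

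Receptors that compete for the same ligands were compared within each library, as the log2 value of one less that of the other. The level of such a difference depends on the lengths of the genes, but its change between populations does not. Ctla4 less Cd28, the inhibitory and the activating receptor for CD80 and CD86, was 1.32, 1.33 and 1.26 in Pers1 and 1.69, 1.804 and 1.67 in Pers2, against 0.89, 0.80 and 0.63 in PAt and 0.58, 0.32 and -0.10 in Arrested libraries. The persistent libraries were all above the PAt and Arrested libraries, by 0.99 on average or 1.99-fold. In Teff cells the mean was -1.05 ± 0.37 and in Tnaive cells -3.90 ± 0.58 (SD, n = 3).

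Tigit less Cd226 was 2.64, 2.51 and 2.57 for Pers1, 3.67, 3.45 and 3.43 for Pers2, 0.40, 0.39 and 0.55 for PAt and 0.72, 0.32 and 0.04 for Arrested libraries. The 2 groups were 2.64 apart, a change of 6.24-fold in the ratio of the inhibitory to the activating receptor, with no overlap. Teff libraries had a mean of 0.93 ± 0.09 and Tnaive libraries of -4.46 ± 0.50 (SD, n = 3). Cd96 less Cd226 went the other way, with means of 1.75 in persistent and 2.29 in PAt and Arrested libraries, a difference of -0.54, and again the groups did not overlap. For each of the 3 pairs the exact permutation test, two-sided, over 924 splits of 6 against 6 libraries gave p = 0.00216, the smallest it allows, and 0.00216 after adjustment over the 3 pairs. That test exchanges the libraries freely, although the 12 libraries came from 3 pools. With Pers1 paired to PAt and Pers2 to Arrested of the same number, the exact sign permutation over these 6 pairs gave p = 0.03125 for each, again the smallest it allows. Those 6 pairs came from the same 3 pools, so they are not independent of each other either, and no test took the pool as its unit.

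**Figure D4:**
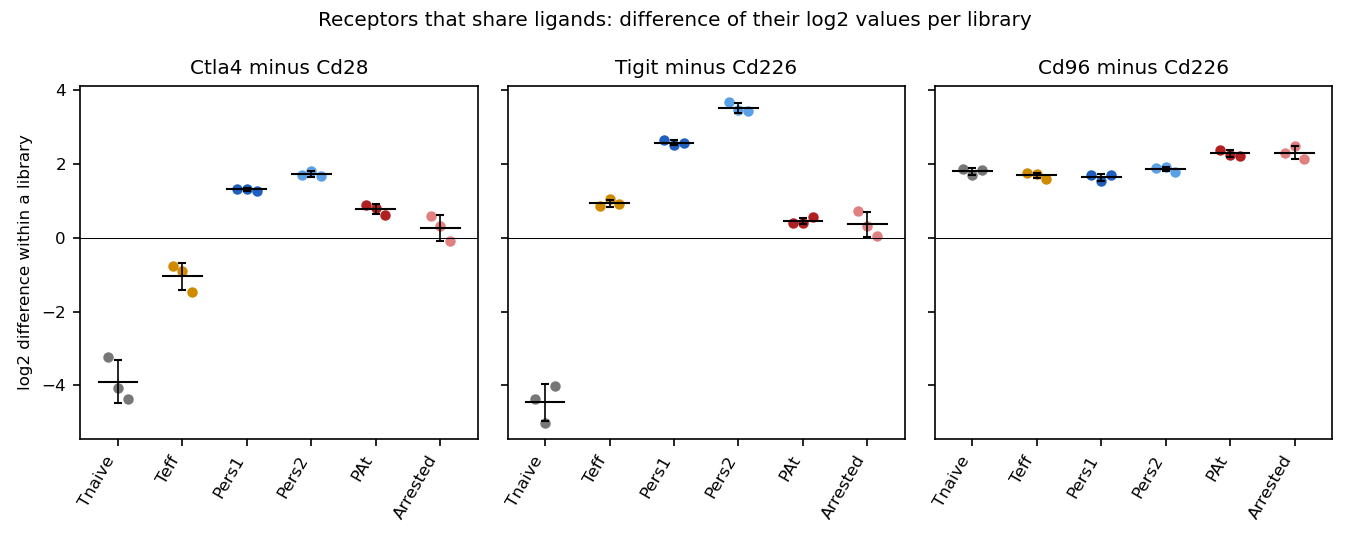
Difference of log2 values within a library (vertical axis) for the receptor pairs Ctla4 and Cd28, Tigit and Cd226, and Cd96 and Cd226 in the 6 populations (horizontal axis), with a point for each library, the mean as a line and the SD as a bar. Tigit less Cd226 runs from -4.46 in Tnaive to 3.52 in Pers2, and Cd96 less Cd226 keeps between 1.64 and 2.30 in all populations.

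Correlations between receptors over the 18 libraries describe the same populations again, since the libraries of a population share a sort. Over the 45 pairs of members Pearson's r had a median of 0.524, with 7 pairs over 0.9 and 15 under 0. Ctla4 and Tigit had an r of 0.973, Icos and Havcr2 of 0.951, Cd226 and Cd96 of 0.811 and Cd96 and Havcr2 of -0.882. Neighbours on chromosome 1 differed, with 0.912 for Ctla4 and Icos and 0.378 for Cd28 and Ctla4. With population means taken out, the median was 0.165 and the range -0.567 to 0.844, and the highest value belonged to Tigit and Lag3. These values rest on 18 libraries with 3 per population.

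**Figure D5:**
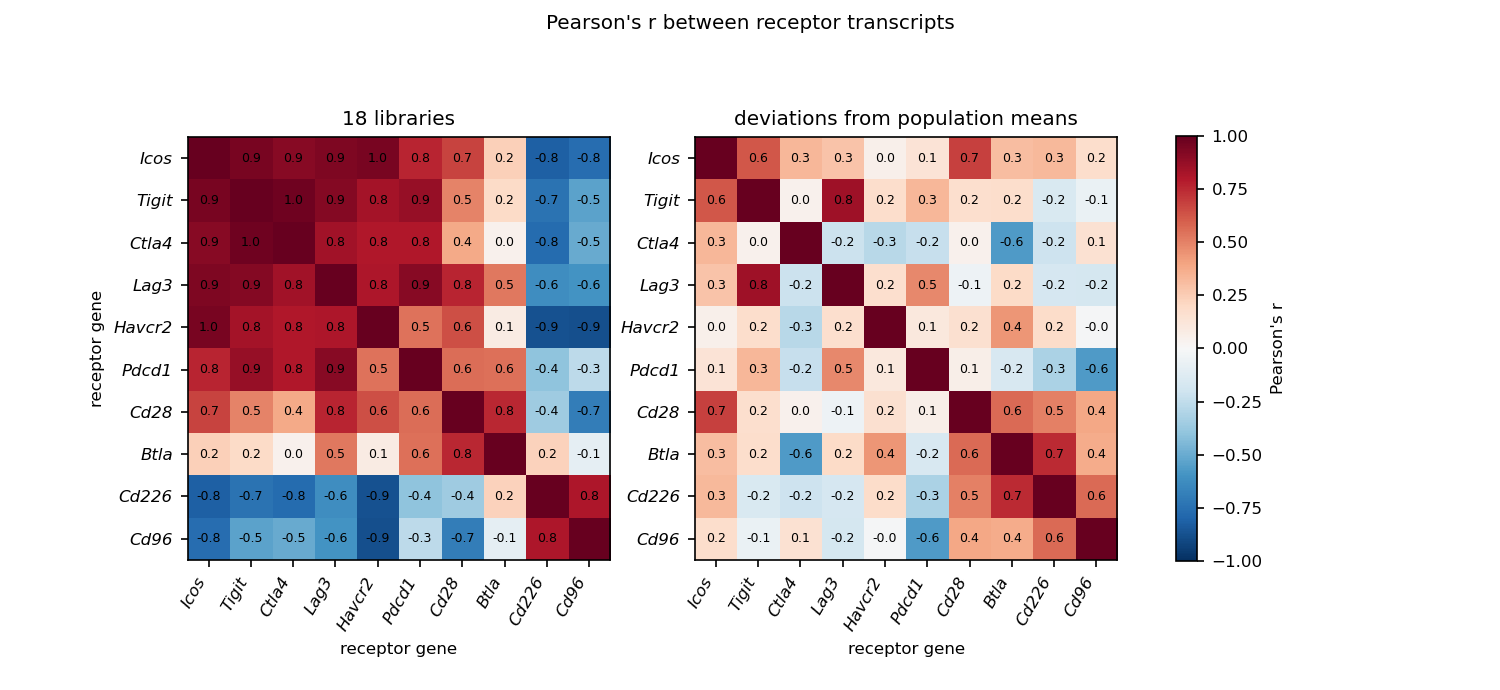
Pearson's r between the 10 receptors over the 18 libraries (left) and over deviations from population means (right), with both axes listing the receptors and the colour running from -1 (blue) to 1 (red). Icos, Tigit, Ctla4, Lag3 and Havcr2 form the red corner of the left panel and Cd226 and Cd96 are blue against them, and the median falls from 0.524 on the left to 0.165 on the right.

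The tested genes whose pattern over the 18 libraries was most like that of each member were listed by Pearson's r, up to 3 per member, as a description. For Ctla4 they were Rnf19b (0.993), Tk1 (0.991) and Cpd (0.990), and for Icos Srgn (0.998) and Ndfip1 (0.997). For Tigit they were Arhgap31 (0.993), Tmbim1 (0.992) and Unc119 (0.991), and for Havcr2 Ncapd2 (0.994), Rrm1 (0.992) and Kpna2 (0.991). Tk1 and Rrm1 encode enzymes of nucleotide synthesis, and Ncapd2 a condensin subunit. Lag3 was most like Ptprv (0.994), Mpp2 (0.989) and S1pr2 (0.989), and Pdcd1 most like Nrn1 (0.991), Ces2d-ps (0.991) and Arhgef3 (0.987).

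Cd28 was most like Slc38a1 (0.985), Sptlc1 (0.978) and Tgfb3 (0.973), Btla most like Jak2 (0.988), Cbfa2t3 (0.983) and Slc9a9 (0.982), and Cd226 most like Rasa2 (0.971), Wars2 (0.968) and Vps13a (0.968). For Cd96 the genes were Fos (0.984), which encodes an AP-1 subunit, Tspyl2 (0.979) and 4833422C13Rik (0.975). None of the 30 was another member.

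Other genes of the pathway were counted from lists, in persistent expressors against PAt and Arrested cells, beside a median log2 fold change of -0.01 over all tested genes, of which 4.74% were called higher and 2.77% lower. Of the ligands 13 were tested, of 15 listed and 14 in the table, and 2 were higher and 0 lower, with a median of 0.02. These 2 were Lgals3 (log2 fold change 3.64), which encodes galectin-3, a ligand of LAG-3, and Nectin1 (1.64). Among 14 signalling partners of the receptors, kinases, phosphatases and adaptors, 0 were called, with a median of -0.13. All were under the fold threshold, with log2 fold changes from -0.76 (Pik3cd) to 0.57 (Akt1). Of 8 genes for the trafficking of CTLA-4 and adaptors, 1 was higher, Lrba (1.25), whose product protects CTLA-4 from degradation in lysosomes, with a median of 0.25.

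Of 15 tested other immunoglobulin-like receptors (16 listed), 2 were higher and 0 lower (4.74% and 2.77% of all tested genes), with a median of 0.06. They were Lair1 (1.15), a collagen receptor with an inhibitory tail, and Cd200r1 (1.04), the receptor for CD200. Of 12 transcription factors linked to coinhibitory receptors, 6 were higher and 0 lower, with a median of 0.88. The highest were Prdm1 (2.97), which encodes Blimp-1, and Maf (2.19), and the lowest of those called were Irf4 (1.43) and Batf (1.28). Among factors of the same list that were not called, Tox differed by 0.01 and Eomes by -0.91.

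Against Teff, in which markers of several other cell types were higher as given above, the same lists split further. Of all tested genes 4.28% were higher and 4.03% lower in persistent expressors, and 2.84% higher and 4.04% lower in PAt and Arrested cells. Of the 12 factors 3 were higher and 2 lower in persistent expressors, and 1 was higher and 5 were lower in PAt and Arrested cells. Of the 15 other immunoglobulin-like receptors 1 was higher and 6 were lower in persistent expressors, and 2 were higher and 5 lower in PAt and Arrested cells. Between Teff and Tnaive cells 8 factors were higher and 1 lower, and 5 of the 15 receptors were higher and 0 lower, where 8.88% and 2.28% of all tested genes were.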

How the data were processed

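RNA-seq of 18 libraries from 6 sorted T-cell populations (3 replicates each, pools of 3 mice) was used, with all columns of the table (0 not used). Per the labels and the paper's methods, the authors made stranded mRNA libraries, read 100-bp paired ends (CASAVA 1.8.2, FastQC 0.11.2), aligned them by TopHat2 2.0.9 to mm10, to which the Timer sequence was added in some runs, and used DESeq2. The counting tool, annotation and strand setting are not given in the sources used here. The authors deposited the table on a log2 scale of normalised counts, with values like those of a regularised log transform, which draws differences of weakly expressed genes towards 0. They run from -0.02 to 18.89, and 173 are below 0. No counts were analysed here, so depth is unknown, and precision rests on the spread between replicates.

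Values were analysed as deposited, without a pseudocount. Genes with a mean below 3 (2212) were left out, and 1 linear model of the 6 populations (12 residual degrees of freedom) was fitted to the others by limma 3.58.1 in R 4.3.3, with a trend on mean expression. P-values were adjusted over all tested genes, and the thresholds on p and fold are those of the study's methods. Receptor pairs were compared by exact permutation in Python 3.11.15. Rows with a date as symbol (22) were left out of the search for similar genes. The model was tested on simulated data.

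The members and gene lists were chosen with earlier results of these data known. The genes named are the 10 members, the 3 most similar genes of each (1 of these genes is not reported here), and, of each list, the 2 highest and 2 lowest fold changes among those called between persistent expressors and PAt and Arrested cells. Foxp3, Il2ra, Ikzf2, Tnfrsf18, Cd4, Itgam, Ccr7, Tcf7, Siglech, Clec9a, Cr2, Klrb1c, Ncr1, Klre1, Pik3cd, Akt1, Tox and Eomes were named after their values were seen. Replicates of a population differed in every value. The replicate number was taken to pair libraries, since the series' description sorts all populations from the same animals. Deviations from population means had a median correlation of 0.166 over 45 pairs of libraries with the same number (-0.206 to 0.436, 42 above 0) and of -0.064 over 90 pairs with different numbers. Filters, scalings, libraries in the fit, the variance trend, the fold threshold, the replicate block and each left-out library were varied.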

Additional observations from a re-analysis of the deposited data

Results flagged for a closer look

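For 6 receptors the shift from PAt and Arrested to persistent cells differed from the shift from Tnaive to Teff cells, by the test of the difference itself in limma. The differences on the log2 scale were -4.03 for Pdcd1, -3.15 for Tigit, -3.02 for Lag3, -2.20 for Ctla4 and -1.43 for Btla, each with the smaller shift among GFP+ cells. Havcr2 had the opposite sign, with 1.35. Over the fits that each left out 1 library the difference kept its sign and its call in all 6, from -4.09 to -3.93 for Pdcd1 and from 1.23 to 1.45 for Havcr2. No group had more than 3 libraries, so single libraries were not screened as outliers.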

How the results depend on the processing

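The read depth behind these values is unknown. Without the threshold on the fold change, the number of members called went from 0 to 3 between Pers2 and Pers1, from 5 to 10 between persistent expressors and Teff, and from 6 to 10 for the difference of shifts, by construction of that setting. No share of all tested genes is given for that setting, so these counts have none to be set against. In a paired fit with the replicate block, no call of a member changed, with 6 called between persistent expressors and PAt and Arrested cells. The differences of the receptor pairs, such as 2.64 for Tigit less Cd226, cannot move with that pairing, since the design is balanced. Directions that changed belonged to differences near 0. Btla between persistent expressors and PAt and Arrested cells was -0.0172 under quantile normalisation, -0.0422 with median centring and between -0.00374 and 0.0652 with 1 library left out. Cd226 between Pers2 and Pers1 was between -0.117 and 0.0132 with 1 left out. Icos between Arrested and PAt was -0.0240 under quantile normalisation and between -0.0530 and 0.0812 with 1 left out. The cause was not tested. Calls changed for Pdcd1 against Teff in persistent expressors (-1.02 under quantile normalisation, -1.04 with median centring, and without Teff replicate 1 or 2), for Havcr2 and for Cd28 as given with the results. Of the neighbouring pairs, 23 to 28 were separated with 1 library left out and 24 to 30 under the other settings. Of the values of single members under alternatives, 1984 kept direction and call, 9 changed direction and 7 changed a call.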
